A study of Mus musculus with 24 samples.

Results

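Immunoglobulin heavy chain transcripts were read in 8 mouse tissues with the 142 probes of an Illumina Mouse Sentrix-6 BeadChip whose identifiers begin with IGH, out of 46120 probes on the array. By their names 136 of these probes belong to variable (V) segments of 15 families, 1 is a diversity segment (IGHD-3P) and 5 are constant regions (IGHM, IGHD, IGHG1, IGHG2C and IGHA). All samples came from normal, untreated male C57BL/6 mice aged 7 weeks, with 3 arrays per tissue. The tissues were peritoneal mesothelium, pleural and pericardial mesothelium combined into a single source, subcutaneous adipose (labelled fat), bladder, heart, liver, lung and skeletal muscle. Mesothelium was collected from many mice, and it was not stated whether the 3 arrays of a tissue held separately extracted RNA. The p-values therefore rest on the spread between arrays of a tissue, which may be technical. That spread was pooled over all 8 tissues, so it can understate the spread among the pleural/pericardial arrays. For IGHV10S2 the SD was 1.93 in pleural/pericardial and 0.18 in peritoneal mesothelium, and the SE of their difference was 0.55.

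A B cell makes its heavy chain gene by joining a V, a diversity and a joining segment to the constant regions that lie behind them. The first constant region used is mu, which gives IgM, delta is co-expressed by mature naive B cells, and class switching later replaces mu with gamma, epsilon or alpha. Each B cell uses a single V segment, so many V segments are transcribed in a mixed B cell population and few in a clonal one. Antibody-secreting plasma cells hold far more heavy chain mRNA than resting B cells. The serous cavities of mice are known for B-1 cells, which secrete natural IgM and often use the VH11 and VH12 families. V segments of 1 family resemble each other in sequence, so a V probe may also bind transcripts of its relatives, and the probes of a family were not treated as replicates.

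Signals were expressed as log2 values after background correction and quantile normalization, and detection required a score above 0.99, the score being the share of negative controls that a probe outshone on that array. On each array 8862 to 13441 of all probes were detected. Arrays of the same tissue correlated at 0.942 or above over all probes. The mesothelium markers Wt1, Msln, Upk3b, Lrrn4 and Nkain4 were read by 7 probes, each detected on all 3 arrays of both mesothelial sources. Their summed linear signal was 13950 to 16990 on pleural/pericardial and 33160 to 40690 on peritoneal arrays. At a limma adjusted p under 0.05, 2 of the 7 probes were higher in peritoneal and 0 in pleural/pericardial mesothelium. The sum was 5184 to 5738 in bladder and 2079 to 2649 in heart, where 4 of these 7 probes were detected on all 3 arrays. Of the cardiac genes listed, 2 had a probe, and they differed. In pleural/pericardial mesothelium the atrial myosin light chain Myl7 reached 13.3 ± 0.38 (SD, n = 3) against 13.8 ± 0.03 in heart. It read 10.99 ± 0.46 in lung and 7.10 ± 0.26 in peritoneal mesothelium. Myh6 read 7.59 ± 1.63 in pleural/pericardial mesothelium, far below the 12.73 ± 0.54 of heart, and 5.05 ± 0.20 in peritoneal mesothelium. How much heart tissue the pleural/pericardial source held was not tested. Signals of different probes depend on probe sequence and were not compared with each other as amounts of RNA. In bulk tissue, fewer cells of a type and less RNA per cell cannot be told apart.

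Heavy chain probes were detected far more often in pleural/pericardial mesothelium than in any other tissue. The 3 arrays of that source detected 65, 58 and 79 of the 142 probes, and 54 probes were detected on all 3, or 38.0% against 24.3% of all probes on the array. Heart followed with 24, 16 and 11 detected probes and 9 on all 3 arrays, or 6.3% against 21.3% of all probes. Adipose detected 3, 7 and 20, so its arrays differed widely among themselves. Peritoneal mesothelium detected 6, 3 and 11, lung 1, 9 and 4, liver 4, 3 and 1, bladder 2, 2 and 4, and skeletal muscle 2, 2 and 4. In 5 tissues a single heavy chain probe was detected on all 3 arrays, or 0.7% against 17.5% to 24.5% of all probes. It was IGHM in peritoneal mesothelium, adipose, lung and skeletal muscle, and IGHA in liver, while bladder detected both. Of the 142 probes 59 were detected on none of the 24 arrays, and 49 were detected on pleural/pericardial arrays only. A set of 28 probes was detected on all 3 pleural/pericardial arrays and on none of the other 21. How many of all probes met the same conditions was not counted, so these counts are given without a background.

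**Figure D1:**
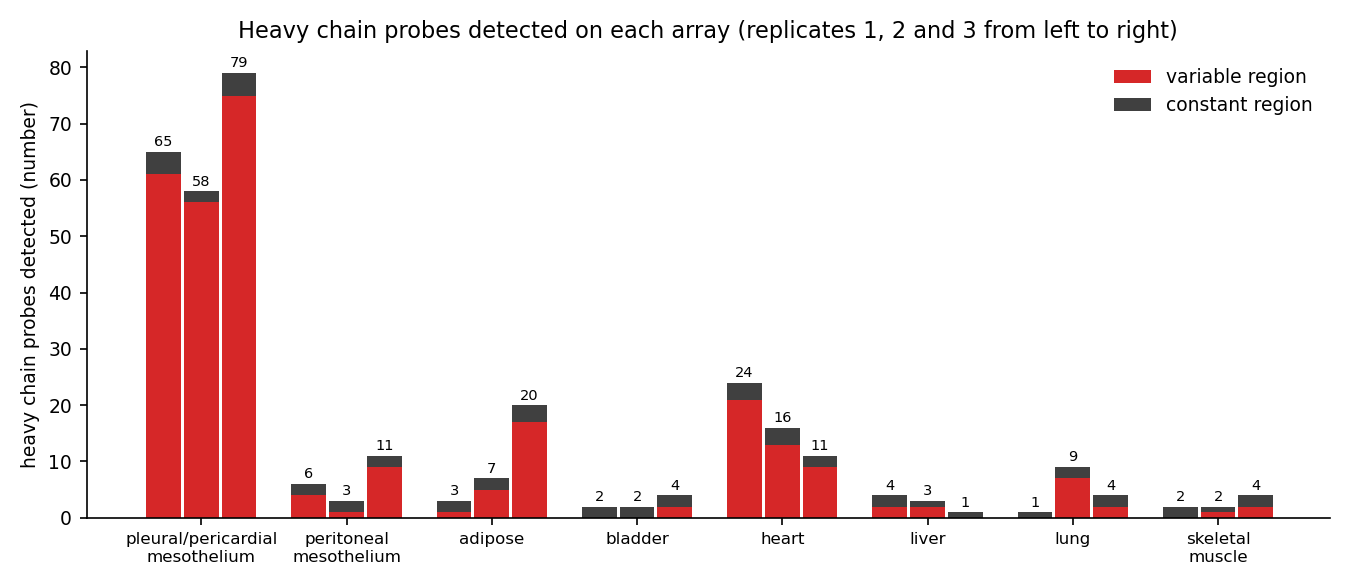
Number of heavy chain probes detected on each array (y axis), by tissue (x axis), with replicates 1, 2 and 3 from left to right, variable region probes in red and constant region probes in dark grey. The pleural/pericardial arrays detected 58 to 79 probes and no other array more than 24.

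IGHM, the constant region of IgM, gave the clearest order of tissues. Its log2 signal was 15.14, 14.74 and 15.05 on the 3 pleural/pericardial arrays, 13.01, 12.10 and 11.89 in heart, 11.20, 11.76 and 12.18 in adipose and 10.96, 9.98 and 10.66 in peritoneal mesothelium. It was 9.73, 9.75 and 9.01 in lung, 8.34, 8.45 and 8.29 in skeletal muscle and 7.12, 7.03 and 7.24 in bladder. In liver IGHM was not detected on any array, with values of 5.84, 6.90 and 5.38. All 3 pleural/pericardial arrays lay above all 21 others, while heart and adipose overlapped.

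The mean of IGHM in pleural/pericardial mesothelium (14.98 ± 0.21, SD, n = 3) exceeded that in peritoneal mesothelium (10.53 ± 0.50) by 4.44 log2 units (SE 0.35, limma adjusted p = 5.6e-08), or 21.8-fold. It exceeded heart by 6.26-fold (limma adjusted p = 1.28e-05), adipose by 9.62-fold, lung by 44.7-fold, skeletal muscle by 98.1-fold and bladder by 231-fold. Liver was at least 238-fold lower, a bound set with the undetected liver arrays at the lowest signal of any detected probe on each. Neighbouring tissues in this order differed past the threshold (limma adjusted p = 0.0357 or below) except heart and adipose (0.62 log2 units, SE 0.35, adjusted p = 0.297) and peritoneal mesothelium and lung (1.04 log2 units, SE 0.35, adjusted p = 0.0623). The step from adipose to peritoneal mesothelium (1.18 log2 units, limma adjusted p = 0.0357) lost its call when any of 4 arrays was left out, among them peritoneal array 2, where the difference was 0.90, and adipose array 3, where it was 0.95.

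A second Ighm probe, outside the identifier rule and named through the gene number in its identifier, ran in a like order. It read 15.97, 15.76 and 15.97 in pleural/pericardial mesothelium, 14.25, 13.48 and 12.94 in heart and 12.51, 11.43 and 12.04 in peritoneal mesothelium. This probe was detected on all 3 liver arrays, at 8.38, 8.09 and 8.19, where IGHM was not.

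**Figure D2:**
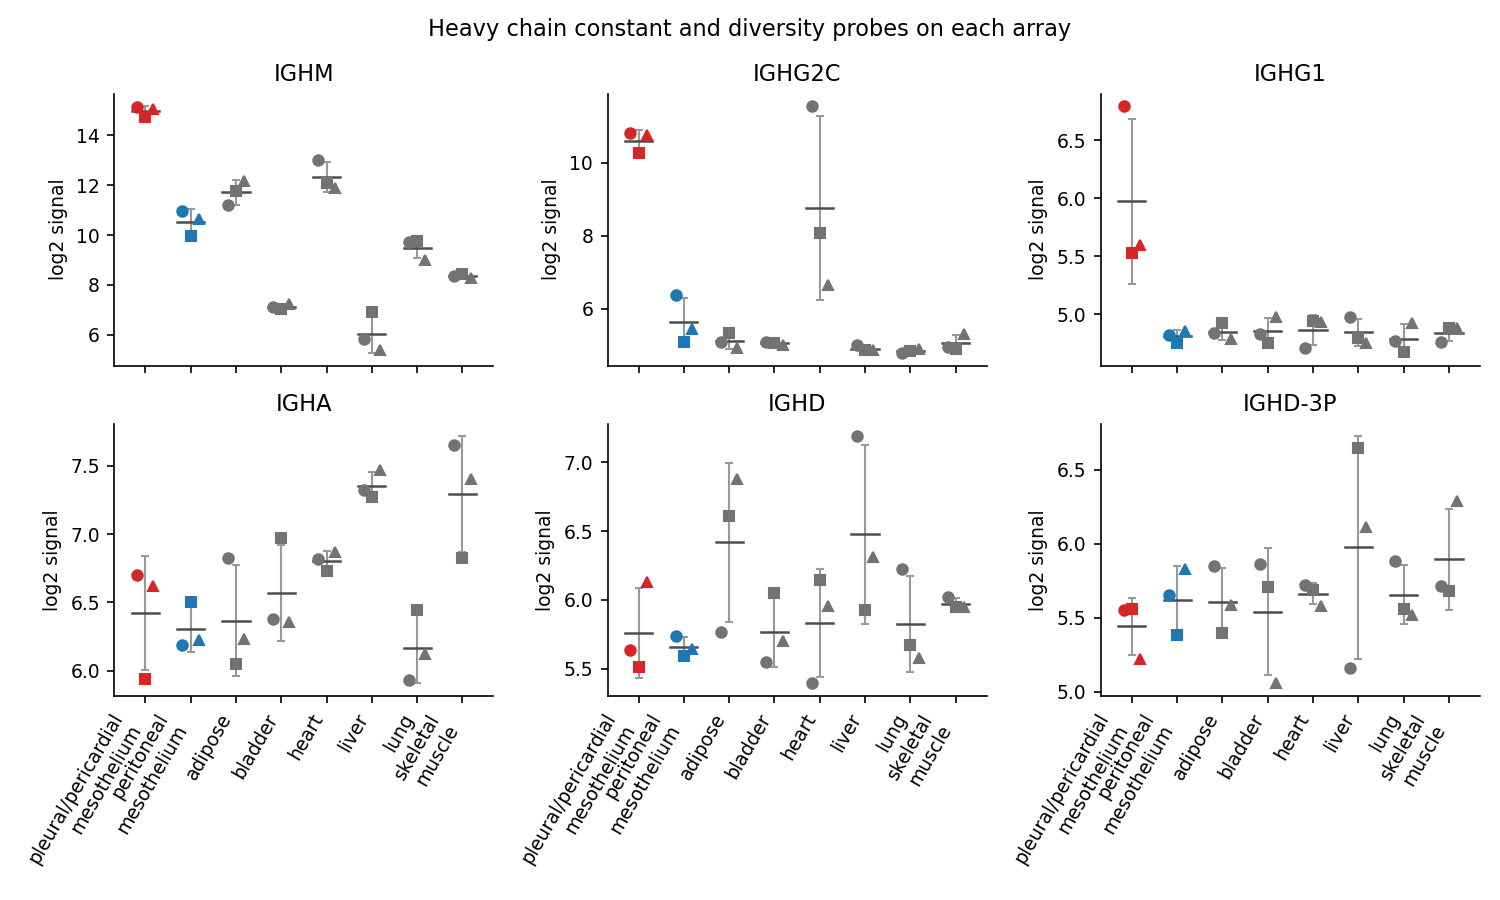
Log2 signal (y axis) of the 5 constant region probes and the diversity probe IGHD-3P on every array, by tissue (x axis), with circles, squares and triangles for replicates 1, 2 and 3, horizontal lines for means, bars for 1 SD, and red for pleural/pericardial, blue for peritoneal and grey for other tissues. IGHM and IGHG2C stood highest on average in pleural/pericardial mesothelium, with heart second, whereas IGHA, IGHD and IGHD-3P stayed within a narrow range. The y axes differ between panels and do not start at 0.

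IGHG2C, the constant region of the IgG2c subclass that C57BL/6 mice carry in place of IgG2a, was present in pleural/pericardial mesothelium and heart. It read 10.80, 10.26 and 10.76 on the pleural/pericardial arrays. In heart it read 11.56, 8.08 and 6.65, with the third array below the detection limit, so the first heart array stood above all pleural/pericardial arrays and the other 2 below them. In peritoneal mesothelium it read 6.38, 5.09 and 5.45 and was detected on the first array only. In the other 5 tissues it was detected on no array, and the means ran from 4.84 in lung to 5.12 in adipose.

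The pleural/pericardial mean of IGHG2C exceeded the peritoneal mean by 4.97 log2 units (SE 0.70, limma adjusted p = 9e-05), or at least 20.7-fold with the 2 undetected peritoneal arrays set at their lowest detected signal. It was at least 11.5-fold above liver and at least 22.0-fold above lung. Against heart the difference of 1.84 log2 units (SE 0.70) missed the threshold (limma adjusted p = 0.0909), without the first heart array it was 3.24 and past it, and with dim probes filtered out it also passed (adjusted p = 0.0336). Heart exceeded peritoneal mesothelium by 3.12 log2 units (limma adjusted p = 0.00261), a call lost when those tissues were fitted alone (adjusted p = 0.128).

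The other gamma chains were read by 1 member and 2 further probes. IGHG1, for IgG1, read 6.79, 5.53 and 5.60 on the pleural/pericardial arrays and was detected only on the first. It read 4.68 to 4.98 on the 21 others, none of them detected. Its difference from peritoneal mesothelium (1.16 log2 units, SE 0.21, limma adjusted p = 0.00126) passed the threshold, but no fold is given because the bound was under 1, and in a fit of those 2 tissues alone it did not pass. A second Ighg1 probe, again named by gene number, read 8.55, 6.98 and 6.30 on the pleural/pericardial arrays, all detected, and was detected nowhere else. Both Ighg1 probes were highest on the first pleural/pericardial array. Ighg3 has no probe with an IGH identifier, and a probe named by gene number for it read 12.06, 12.04 and 11.87 in pleural/pericardial mesothelium, 10.42, 9.23 and 9.61 in heart and 5.98, 8.05 and 5.25 in peritoneal mesothelium. This Ighg3 difference between the mesothelial sources was 5.56 log2 units (SE 0.62, limma adjusted p = 5.28e-06).

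IGHA, for IgA, and IGHD, for IgD, did not follow IGHM. IGHA lay between 5.93 and 7.65 on all 24 arrays, near the detection limit, and was highest in liver (7.32, 7.27 and 7.47) and skeletal muscle (7.65, 6.83 and 7.40). Liver exceeded pleural/pericardial mesothelium (6.70, 5.94 and 6.62) by 0.93 log2 units (SE 0.24, limma adjusted p = 0.00582), a call that ended without pleural/pericardial array 2, where the difference was 0.69. Between the mesothelial sources IGHA differed by 0.11 log2 units (SE 0.24, limma adjusted p = 0.957). IGHD was detected on 1 pleural/pericardial array, 2 adipose arrays and 1 liver array, at 6.13, 6.61, 6.87 and 7.19, and passed the threshold in none of the 28 comparisons between tissues. The diversity probe IGHD-3P was detected on no array.

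Many heavy chain probes were higher in pleural/pericardial than in peritoneal mesothelium, and none was lower past the threshold. In the direct comparison 71 of 142 probes passed an adjusted p of 0.05 in limma in that direction, against 2.39% of all probes. In the other direction 0 passed, where 3.4% of all probes did. At an unadjusted p under 0.05 the counts were 78 higher and 0 lower, against 2827 and 3520 of all 46120 probes. The median difference was 0.84 log2 units over the 142 probes and -0.01 over all probes. For 74 heavy chain probes all 3 pleural/pericardial arrays lay above all 3 peritoneal arrays, which was true of 8.02% of all probes. Of the 71 probes 53 were detected on all 3 pleural/pericardial arrays. When these 2 tissues were fitted alone 50 heavy chain probes were called, and the share of all probes called in that fit was not counted.

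Differences were unevenly spread over the V families. In IGHV1, by far the largest family on the array, 29 of 70 probes passed, with a median difference of 0.31 log2 units and a maximum of 5.80. In IGHV5 16 of 25 passed, with a median of 1.42, and in IGHV8 7 of 8, with a median of 3.38. All 3 IGHV10 probes and the single IGHV11 and IGHV12 probes passed, as did 3 of 4 in IGHV14, 3 of 4 in IGHV3 and 2 of 4 in IGHV6. In IGHV2, IGHV7 and IGHV9 only 1 probe each passed, of 4, 4 and 5. The single probes of IGHV4, IGHV13 and IGHV15 were detected on no pleural/pericardial array, with means of 5.34, 5.02 and 5.25. Families were not tested against each other.

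**Figure D3:**
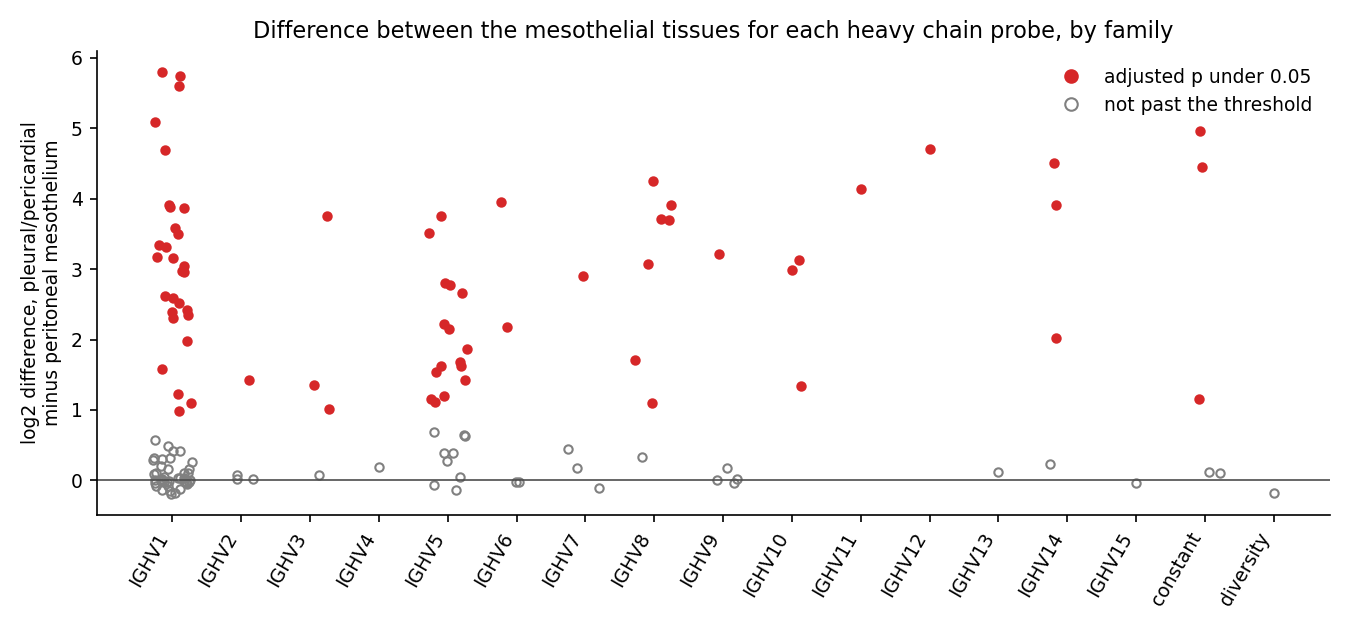
Log2 difference between pleural/pericardial and peritoneal mesothelium (y axis) for each of the 142 heavy chain probes, by V family or class (x axis), with filled red points for an adjusted p under 0.05 and open grey points for the rest. In IGHV1 29 of 70 probes passed and the rest gathered around 0, whereas 7 of 8 IGHV8 probes passed.

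The 10 V probes with the largest differences among those detected on all 3 pleural/pericardial arrays came from families 1, 6, 8, 11, 12 and 14. IGHV1S35 read 10.50, 10.88 and 11.84 in pleural/pericardial and 5.22, 5.17 and 5.42 in peritoneal mesothelium. It was detected on no peritoneal array and was at least 29.6-fold higher in the pleural/pericardial source (limma adjusted p = 6.41e-07). IGHV1S63 read 10.87, 11.34 and 12.46 against 5.95, 5.37 and 6.11, with 1 peritoneal array detected, and was at least 41.1-fold higher (limma adjusted p = 3.18e-06). IGHV1S13 ran from 10.66 to 12.37 against a peritoneal mean of 5.74 ± 0.40 (SD, n = 3), with no array detected, and was at least 35.6-fold higher. In these 3 probes, as in most others, the third pleural/pericardial array stood above the other 2.

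IGHV1S120 exceeded peritoneal mesothelium by at least 23.1-fold, and IGHV1S36 by at least 11.6-fold. IGHV14S1, at 10.02, 8.71 and 10.84, was at least 12.7-fold higher, IGHV8S7, at 9.73, 9.38 and 10.46, at least 12.7-fold and IGHV6S4, at 7.96, 8.40 and 9.98, at least 6.03-fold, none of the 3 being detected in peritoneal mesothelium.

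The families associated with B-1 cells each have 1 probe here. IGHV12S1 read 11.08, 10.50 and 12.15 in pleural/pericardial mesothelium, 8.58, 7.52 and 8.09 in heart and 6.40, 6.24 and 6.98 in peritoneal mesothelium, where it was detected on 2 of 3 arrays. Its pleural/pericardial mean was 4.70 log2 units above the peritoneal mean (SE 0.44, limma adjusted p = 4.42e-07) and 3.18 above heart (limma adjusted p = 1.89e-05). IGHV11S1 read 9.12, 8.54 and 10.97 in pleural/pericardial mesothelium and 6.03, 5.65 and 6.88 in heart, where it was detected on the third array only. It was detected on no peritoneal array and was at least 10.2-fold higher in the pleural/pericardial source (limma adjusted p = 9.31e-07). A probe outside the identifier rule that the study's annotation names Igh-V11 read 10.15, 9.58 and 12.20 in pleural/pericardial mesothelium, with 7.12, 6.75 and 7.08 in heart and 5.15, 5.31 and 6.25 in peritoneal mesothelium. In all 3 probes the third pleural/pericardial array was the highest.

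In the remaining families the probe with the highest pleural/pericardial mean was IGHV3S2 (9.50 ± 1.16, SD, n = 3), IGHV5S17 (9.68 ± 1.22), IGHV7S3 (8.86 ± 1.07), IGHV9S6 (8.63 ± 0.80), IGHV10S2 (8.30 ± 1.93) and IGHV2S4 (6.45 ± 0.52). IGHV2S4 was detected on 2 of the pleural/pericardial arrays and the rest on 3. Each was higher than in peritoneal mesothelium (limma adjusted p = 0.00137 or below), where the means ran from 5.02 to 5.96.

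**Figure D4:**
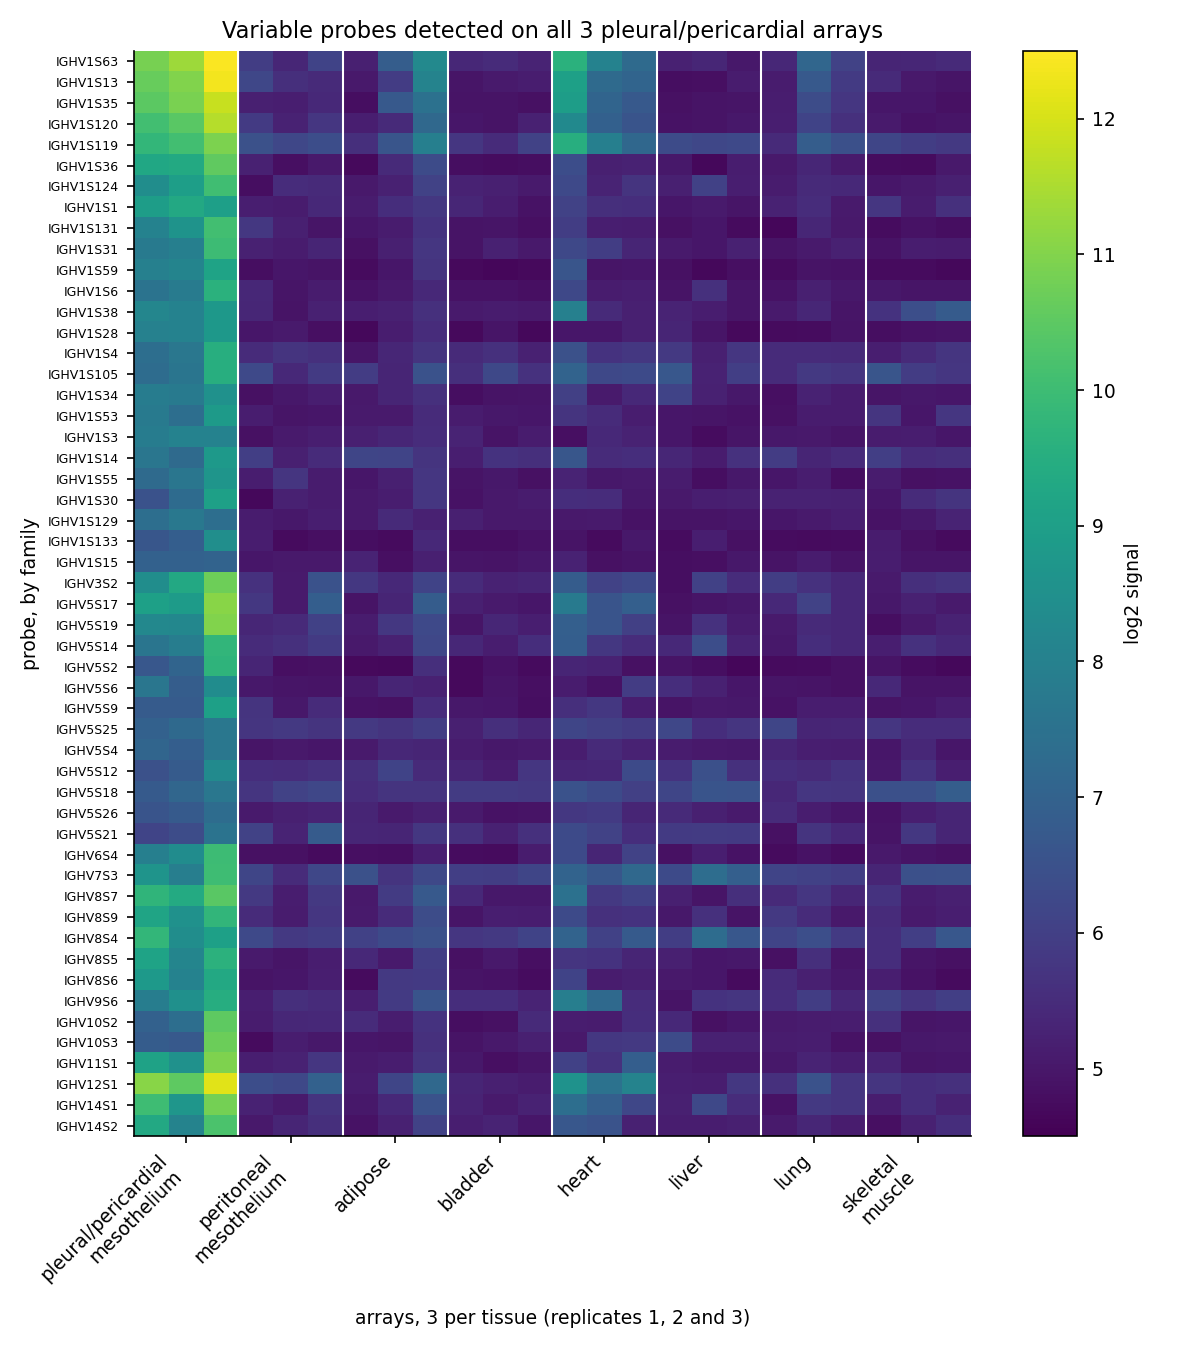
Log2 signal (colour, scale at right) of the 52 variable region probes detected on all 3 pleural/pericardial arrays (rows, ordered by family and mean) on the 24 arrays (columns, 3 per tissue, replicates 1, 2 and 3). The third pleural/pericardial array was the brightest of its source for 49 of the 52 probes, and the first heart array and the third adipose array were brighter than their replicates for many of them.

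The arrays of the pleural/pericardial source differed among themselves in most V probes, and by less in IGHM (SD 0.21) and IGHG2C (SD 0.30). Of the 52 V probes detected on all 3 arrays, 49 were highest on the third array, 2 on the second and 1 on the first, and 27.7% of all probes detected there were highest on the third. The third array exceeded the mean of the other 2 by a median of 1.34 log2 units over the V probes and by more than 1 log2 unit for 35 of them. The median was 0.13 over the 79 kappa chain probes, of which 38 were highest on the third array, and -0.06 over all detected probes. The largest excess was 3.91 in IGHV10S3, followed by 3.32 in IGHV10S2 and 2.82 in IGHV5S2. By contrast IGHV1S15, IGHV1S3, IGHV1S1 and IGHV1S129 varied little, with SDs of 0.03, 0.12, 0.20 and 0.18 among the 3 arrays, and IGHV8S4 was highest on the first (9.79, 8.41 and 9.04). The V probes had a median SD of 0.80 among the 3 arrays, against 0.58 for kappa probes and 0.28 for all probes detected there.

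**Figure D5:**
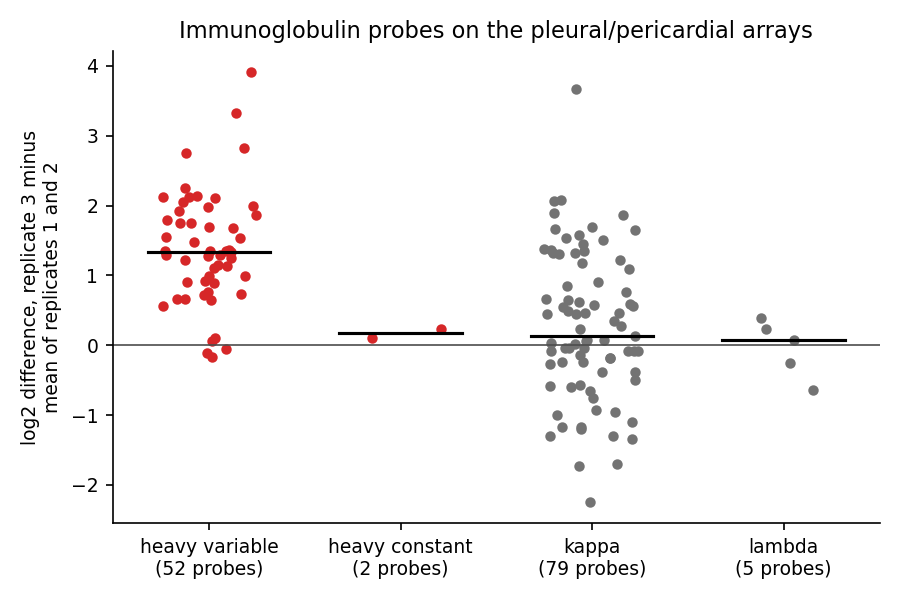
Log2 signal of the third pleural/pericardial array minus the mean of the first and second (y axis) for immunoglobulin probes detected on all 3 arrays, by set (x axis), with 1 point per probe and a black line at the median. Heavy chain variable probes had a median of 1.34 and kappa probes of 0.13.

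Without the third pleural/pericardial array 68 heavy chain probes were called higher than in peritoneal mesothelium, 67 of them among the 71. The early lymphocyte gene Rag1, the recombinase that joins V segments, read 10.21, 7.75 and 8.46 on these arrays, the thymic epithelial gene Tbata 11.29, 9.08 and 10.43, and the T cell gene Cd3e 11.66, 9.84 and 10.62. Those genes were highest on the first array, whereas Dntt (7.44, 5.42 and 7.89) and the cardiac genes Myh6 (5.82, 7.92 and 9.03) and Myl7 (12.97, 13.15 and 13.70) were highest on the third, as most V probes were. Their part in the V probe signals was not tested.

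Against the 6 tissues other than mesothelium, 52 heavy chain probes were enriched in the pleural/pericardial source, meaning a B-statistic (log odds of a difference) above 0 and at least a 2-fold higher mean in each comparison, against 0.431% of all probes. They comprised 50 V probes, IGHM and IGHG1. In peritoneal mesothelium 0 heavy chain probes met this rule, against 0.685% of all probes, so a count of 0 among 142 is near the background. With an adjusted p in place of the B-statistic the count was also 0, and the share of all probes was not counted. The count of 52 fell to 16 when 10 probes with averaged detection scores were kept in the estimate of background, and to 18 when each pair of tissues was fitted alone. For 61 of the 142 probes all 3 pleural/pericardial arrays lay above all 21 other arrays, against 0.592% of all probes.

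For the 52 enriched probes the closest tissue was heart in 36, adipose in 12, skeletal muscle in 3 and liver in 1. In the closest tissue 16 probes were detected, on all 3 arrays for 7 and on 1 or 2 arrays for 9. Among these the fold was highest for IGHV1S13 (11.7-fold over heart, limma adjusted p = 0.000255), IGHV1S35 (11.2-fold) and IGHV1S120 (at least 10.6-fold over heart, detected on 2 of its arrays). For 34 probes only a bound could be given, because they were detected on no array of the closest tissue. The lowest bound was 1.21-fold and several others were also under 2-fold, so a 2-fold excess was not secured for those enriched probes. For 2 probes, IGHG1 among them, no fold could be given. Of the 52 probes 45 were detected on all 3 pleural/pericardial arrays.

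In single comparisons, all sharing the same pleural/pericardial arrays, 67 heavy chain probes were higher in that source than in adipose (against 2.89% of all probes), 74 than in bladder (6.6%), 72 than in heart (8.24%), 72 than in liver (11.4%), 74 than in lung (6.71%) and 76 than in skeletal muscle (11.1%). In the opposite direction 0 were lower than in adipose, bladder, heart or lung, where 3.32%, 7.43%, 7.83% and 7.34% of all probes were. At an unadjusted p under 0.05 these counts were 2, 0, 4 and 1, and the shares of all probes at that limit were not counted. There were 8 lower than in liver, against 11.2% of all probes, and 5 lower than in skeletal muscle, against 12.3%. Of the 8 lower than in liver, 5 were detected on no array of either tissue, and IGHA was the only one detected on all 3 liver arrays. With each pair fitted alone 38 were higher than in adipose.

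Heart was the only other tissue in which several V probes were detected on all 3 arrays, 7 in number. The 5 with the highest heart means were IGHV1S63, IGHV1S119, IGHV12S1, IGHV1S13 and IGHV1S35, of which all but IGHV1S119 were also among the 10 with the largest difference between the mesothelial sources. IGHV1S63 read 9.62, 8.05 and 7.27 in heart, IGHV1S119 9.51, 7.96 and 7.18, IGHV1S13 9.04, 7.26 and 7.07 and IGHV1S35 8.97, 7.07 and 6.74. In these 4 probes the first heart array stood well above the other 2, as it did for IGHG2C and by a smaller margin for IGHM.

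All 5 probes were lower in heart than in pleural/pericardial mesothelium, by 2.06 log2 units for IGHV1S119 (SE 0.52, limma adjusted p = 0.00835) to 3.55 for IGHV1S13 (SE 0.62). The IGHV1S119 difference lost its call without pleural/pericardial array 3 (1.72 log2 units) or heart array 3 (1.54). Compared with peritoneal mesothelium, 13 heavy chain probes were higher in heart, which is 9.15% of them against 8.12% of all probes, a share near the background. Heart exceeded bladder for 17 of the 142 heavy chain probes, against 7.55% of all probes. The shares were near or below the background for skeletal muscle (7.04% against 6.35%), lung (7.75% against 8.78%), liver (8.45% against 11.1%) and adipose (2.82% against 8.5%), and 6 heavy chain probes were lower in heart than in liver, where 9.55% of all probes were. The 13 became 4 without the first heart array, 5 without the second peritoneal array and 7 without the first. Only IGHG2C and IGHV12S1 were higher in heart than in all 6 of the tissues apart from the pleural/pericardial source, which held for 1.03% of all probes.

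Adipose arrays differed from each other. Replicate 3 detected 17 V probes and replicate 1 detected 1, and IGHV1S63 read 5.20, 6.86 and 8.26, IGHV1S119 5.57, 6.61 and 7.96 and IGHV12S1 5.12, 6.16 and 7.21 on the 3 adipose arrays. The follicular B cell receptor Fcer2a (CD23) read 5.12, 9.66 and 9.88 and Cd3e 6.52, 11.63 and 11.37 on the same arrays, both low on the first adipose array and high on the other 2. The B lineage gene Ebf1 (10.41, 10.24 and 10.32) was even across these arrays, and the plasma cell gene Tnfrsf17 (7.54, 6.01 and 6.36) was highest on the first. Their part in the heavy chain signals was not tested. No V probe was detected on all 3 arrays of adipose, lung, liver, bladder, skeletal muscle or peritoneal mesothelium. The second lung array detected 7 V probes, among them IGHV1S63 at 7.15, and the other lung arrays 0 and 2.

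Some markers of lymphoid cells were higher in pleural/pericardial than in peritoneal mesothelium and others were not. Higher past the threshold were 1 of 3 B lineage, 1 of 5 plasma cell and 2 of 4 early lymphocyte probes, against 2.39% of all probes. None of these marker probes was lower past it. Of the 12 B lineage genes listed, 2 could be tied to a probe. Fcer2a was 3.27 log2 units higher in pleural/pericardial than in peritoneal mesothelium (limma adjusted p = 0.00867), with a second Fcer2a probe at 0.67 (adjusted p = 0.606), and the transcription factor Ebf1, which adipose also expresses, differed by -0.05 (adjusted p = 0.986). The summed linear signal of these 3 probes was 981 to 1053 on pleural/pericardial arrays, 447 to 693 on peritoneal arrays and highest in adipose, at 1423 to 2423. Of 8 plasma cell genes 4 had a probe. Tnfrsf17 (BCMA), a survival receptor of plasma cells, read 8.62 ± 0.31 (SD, n = 3) and 6.14 ± 0.37 in the mesothelial sources (limma adjusted p = 2.56e-05). Jchain, which links the subunits of IgM and IgA, was detected on 1 pleural/pericardial array and no other mesothelial array, the syndecan Sdc1 on none, and Xbp1 differed by -0.05 log2 units. The plasma cell sum was 8990 to 9631 and 8494 to 9982 on the 2 sets of arrays, nearly all of it from Xbp1.

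Beyond the B lineage, Rag1 was 3.08 log2 units higher in pleural/pericardial than in peritoneal mesothelium (limma adjusted p = 1.48e-05) and Dntt 1.68 (adjusted p = 0.0071), whereas the surrogate light chain genes Vpreb1 and Igll1, defining markers of precursor B cells, were not detected in either source. The follicle chemokine Cxcl13 was 3.02 log2 units higher (limma adjusted p = 0.000471). The thymic epithelial genes Tbata and Prss16 were 5.23 and 2.27 log2 units higher (limma adjusted p = 2.87e-09 and 0.00036) and were detected on no peritoneal array. Of 52 T cell receptor probes 8 were higher in the pleural/pericardial source (15.4%, against 2.39% of all probes) and 0 lower (against 3.4%). Cd3e was 3.68 log2 units higher (limma adjusted p = 0.0121). The part of B cells, plasma cells or thymic tissue in the heavy chain signals was not tested.

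Among light chain probes, 89 of 146 kappa and 4 of 12 lambda probes were higher in pleural/pericardial than in peritoneal mesothelium, and 0 of either lower. Of all probes 2.39% were higher and 3.4% lower. On all 3 peritoneal arrays 16 kappa and 4 lambda probes were detected, sets that include light chain constant regions, and 1 heavy chain probe, IGHM. Among probes without an immunoglobulin identifier, those whose log2 signals followed the mean of the 142 heavy chain probes most closely over the 24 arrays included Igh-V11 (Pearson r = 0.97), Igh-VS107 (0.94), Igkv1-110 (0.93), Tbata (0.92), a probe annotated as Serpina3b (0.94) and AI324046 (0.91). Of the 10 closest probes 4 had no gene symbol here and 7 carry an immunoglobulin description in the study's annotation, and the values share arrays and normalization and fall in groups of 3 per tissue, so the coefficients are descriptive.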

How the data were processed

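RNA of 8 tissues was hybridised to 24 arrays. With BeadStudio the authors obtained, and deposited for each probe and array, a background-subtracted signal intensity that was not normalized (36.0% at or below 0) and a detection score, deposited as a fraction from 0 to 1. The score column is headed as a p-value but rises with signal, and equals the share of 1616 negative controls below the probe. The authors' quantile-normalized signal, linear with a median of 14.8 and made with lumi, was deposited as a second table and used as an alternative. Negative controls were inferred from the scores with 10 probes of averaged scores left out, a choice made after first counts were known, which gave inferred SDs of 14.1 to 43.0 in place of 159 to 789. Signals were corrected by normexp (offset 16), log2-transformed and quantile-normalized. limma 3.58.1 in R 4.3.3 fitted 1 mean per tissue over all arrays (assumed share of changed probes 0.01), with Benjamini-Hochberg adjustment over all 46120 probes of each of 28 comparisons. Calls used an adjusted p under 0.05, or for enrichment B above 0 and at least 2-fold in all 6 comparisons. Detection needed a score above 0.99. Against a tissue with no detected array, or with some undetected where so stated, folds are bounds computed with each undetected array at the higher of the probe's own value and the lowest signal of a detected probe on it (6.06 to 7.24 log2 units), and none is given where the bound is under 1. The number of arrays limits the precision, as bead numbers were not used here.

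Members were found by identifier, and the probes and lists were chosen with earlier results of these data known. All constant and diversity probes were named, with the 10 V probes of largest difference, the IGHV11 and IGHV12 probes, the highest of each family, the 5 highest in heart, probes detected on all arrays of peritoneal mesothelium, liver or skeletal muscle, probes highest and detected in another tissue, and, where they had a symbol, the 10 probes most like the members' mean. IGHV10S3, IGHV5S2, IGHV1S15, IGHV1S3, IGHV1S1, IGHV1S129, IGHV8S4 and the second probes of Ighm, Ighg1 and Ighg3 were named after their values were seen. Marker genes were tied to probes by the study's annotation or by a gene number in the identifier. That number was checked on 97 annotated probes found in RefSeq, of which 92 carried the same symbol or a synonym. The fit was tested on simulated data with known changes. Deviations from tissue means correlated at 0.60, 0.59 and 0.63 between same-numbered arrays of the mesothelial sources and below 0 between others. The values below 0 add little, because the deviations within a tissue sum to 0. Same-numbered pleural/pericardial and liver arrays also correlated (0.28, 0.38 and 0.38), and those of bladder did not (-0.02, -0.06 and -0.01). The numbers were taken to pair the mesothelial arrays, although the labels do not say what a number marks. A fit with the replicate block was an alternative. Others were a shift in place of normexp, an offset of 50, a filter on dim probes, separate fits, other call rules and leaving out each array. No duplicate arrays were found: at most 0.353% of signals were equal between 2 arrays.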

Additional observations from a re-analysis of the deposited data

How the results depend on the processing

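The 71 heavy chain probes higher in pleural/pericardial than in peritoneal mesothelium ranged from 50 to 70 under the 8 alternatives to processing or model, with 70 in the fit with the replicate block, all of them among the 71, and from 67 to 72 when single arrays were left out. In the opposite direction the count was 0 under every alternative run. The 52 enriched probes became 16 when the probes with averaged scores were kept in the background estimate and 18 with separate fits, where fewer arrays share the spread, and 44 to 59 without single arrays. Elsewhere they numbered 45 to 60, with 52 under the block. The enriched count in peritoneal mesothelium, which was near the share of all probes, stayed at 0 in all. The 13 probes higher in heart than in peritoneal mesothelium became 2 with the averaged scores kept and 1 under the B-statistic rule. Of 1213 values for single probes and pairs under alternatives, 0 reversed, 37 lost and 2 gained a call, 8 counts moved by over 1.5 times, and the block changed no call of a named probe.

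Detection on all 3 arrays depended on the limit. With a limit of 0.05 on 1 minus the score, the counts of 54 in pleural/pericardial mesothelium and 9 in heart became 65 and 16. Those in peritoneal mesothelium, adipose and liver became 5 each, bladder and skeletal muscle 6 each, and lung 8. Counting probes detected on at least 1 array gave 82 in pleural/pericardial mesothelium, 15 in peritoneal mesothelium, 23 in adipose and 26 in heart. It gave 10 in lung, 6 in liver, 5 in skeletal muscle and 4 in bladder. Of all 46120 probes 14829 were detected on at least 1 pleural/pericardial array. For the other tissues, and at the limit of 0.05, the shares of all probes were not counted. A probe at background can pass by chance on any of the 3 arrays, so the smallest of these counts may be noise. Probes at background carry little information: 59 of the 142 were never detected, and differences among them below the lowest detected signal could not be measured.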
